A study of Homo sapiens with 9 samples.

Results

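Prognosis in uveal melanoma (UM), the most frequent eye tumour of adults, is read from tumour RNA by an assay of 15 genes, 12 of which separate tumours of low metastatic risk (class 1) from tumours of high risk (class 2) while 3 serve as reference genes. HTR2B, ECM1, RAB31, and CDH1 are higher in class 2 tumours, and EIF1B, FXR1, ID2, LMCD1, and LTA4H are among the genes that are higher in class 1 tumours. PTP4A3, a phosphatase gene on the long arm of chromosome 8 whose expression has been linked to metastasis in UM, was added to these 9 class genes. The members were chosen by gene symbol, and 9 of the 10 had values among the 14839 genes of the series. CDH1, which encodes E-cadherin, was not analysed here. The other class genes of the assay, MTUS1, ROBO1, and SATB1, and its reference genes MRPS21, RBM23, and SAP130 were used for comparison.

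RNA sequencing of polyA RNA followed MP41 cells, a human UM line with a GNA11 mutation, after transfection with synthetic miR-16 or with a control mimic (miR-CTR), both at 66 nM. Cells were collected at 0 h and after 6, 12, 24, and 48 h. This gave 4 libraries with miR-16 and 5 with miR-CTR, 1 for each condition. The 0 h library is labelled miR-CTR, and the study calls 0 h the starting time point. It was taken as cells collected before transfection. The question put to each member was whether its RNA differed between miR-16 and miR-CTR. Each condition has 1 library, so there is no replicate error at any time. The 4 times were not used as replicates of each other, no test between the mimics was run, and the results come from 1 cell line. The table numbers the times without giving hours, and these numbers are not consecutive. The numbers were read as the rising times 0, 6, 12, 24, and 48 h, so every statement on time rests on that reading.

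miRNAs guide Argonaute proteins to RNAs, mostly through pairing of the seed (bases 2 to 8 of the miRNA) with the 3′UTR, which usually lowers the RNA. The mimics are shown because their seeds define the matches searched for in the members, with the seed in capitals and 5′ to 3′.
miR-16: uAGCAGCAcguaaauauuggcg
control: uUGUACUAcacaaaaguacug
The control sequence is the one that the study's list of oligonucleotides gives under the label of the biotinylated miR-16. The labels of the 2 biotinylated mimics were taken as swapped, and the transfected miR-CTR was assumed to have this sequence. A match was 8 letters long (TGCTGCTA for miR-16 and TAGTACAA for the control), or 7 letters long without the final A (7mer-m8, TGCTGCT and TAGTACA) or without the first letter (7mer-A1, GCTGCTA and AGTACAA). Matches were read on the sense strand of the longest annotated 3′UTR (GENCODE version 29, GRCh38), and a longer match was not counted again as a shorter one.

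Of the 9 members, FXR1 and LMCD1 held a miR-16 match in this 3′UTR (2 of 9), against 33.2% of the 11575 protein-coding genes with a value and an annotated 3′UTR. The same members, FXR1 and LMCD1, held a control match, against 16.4% of these genes. Both have long 3′UTRs, of 6461 bases in FXR1 and 7075 in LMCD1, whereas the median over the protein-coding genes was 1672 bases. The windows of 30 bases around these sites are given on the plus strand with the match in capitals. They are the members' sites of 7 or 8 letters for either mimic, apart from 2 further 7mer-m8 control sites in FXR1.
FXR1, miR-16 7mer-A1 at chr3:180978515-180978521: ccgtctttttgGCTGCTAtcctagttaggt
FXR1, miR-16 7mer-A1 at chr3:180980026-180980032: cagaattagaaGCTGCTAttttagctctat
LMCD1, miR-16 7mer-m8 at chr3:8572973-8572979: gctttccatgaTGCTGCTtagagttaaaca
FXR1, control 8mer at chr3:180982065-180982072: tgtgaaggccaTAGTACAAaaagttaagag
LMCD1, control 8mer at chr3:8571293-8571300: tccccaactctTAGTACAAatcctggcaac
The shortest match searched for was 6 letters long, GCTGCT for miR-16 and AGTACA for the control. Other stretches of 6 seed letters were not searched. The 3′UTRs of HTR2B (287 bases), ECM1 (322 bases), RAB31 (3226 bases), EIF1B (410 bases), ID2 (776 bases), and LTA4H (1289 bases) held no such match to either mimic. That of PTP4A3 (1410 bases) held 1 such match of 6 letters to miR-16. The 3′UTR of FXR1 held 3 matches of 6 letters to miR-16 besides its 2 longer ones. A match is only a description of the letters in these windows, and the search did not include coding sequence, other transcripts, or pairing outside the seed.

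All 9 members were well expressed, and none was among the lowest 25% of genes by mean expression. At 0 h, levels per length (normalized reads per kb of annotated exon) ran from 1061 for ECM1 to 83.7 for LMCD1. ID2 followed ECM1 at 860.2 and PTP4A3 at 737, and then came HTR2B at 553, RAB31 at 511, EIF1B at 414, FXR1 at 359, and LTA4H at 258. The ranges over the 9 libraries overlapped between neighbours in this order except between ECM1 and ID2, between PTP4A3 and HTR2B, and between LTA4H and LMCD1. The exon length counts every annotated transcript, so a gene with many long transcripts, such as FXR1 with 12054 bases of exon, is placed low. The melanocyte lineage markers were high, as the label of a UM line requires, with 7 of 7 between 12.29 and 17.88 on the normalized log2 scale at 0 h, and of 5 markers of other cell types only COL1A1 had values (8.31 at 0 h).

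The table holds normalized log2 values, and recovered library depths lay between 20270000 and 27370000 reads. Each member was counted with at least 529 reads in every library (LMCD1, miR-CTR 24 h) and at most 5910 (FXR1, miR-CTR 48 h). The logFC at each time was the miR-16 value minus the miR-CTR value, on the log2 scale, and the early and late logFC were the means over 6 and 12 h and over 24 and 48 h. A gene was called when its logFC was above 0.5 or below −0.5, the threshold that the study used. Standard errors (SE) and 95% intervals were derived from the reads and cover counting error only, so they show what depth allows and say nothing of the spread between cultures. In bulk RNA a change in the share of cells with an RNA and a change in its amount per cell cannot be told apart.

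The class genes and PTP4A3 did not move as a block after miR-16. In the late window PTP4A3 was the only member above 0.5, at 0.52, and HTR2B lay just under the threshold at 0.495. Among all genes, 7.76% were above 0.5 in the late window and 5.73% were below −0.5, so that 1 call among 9 members is near the background. The median late logFC of the 9 members was 0.09, against 0.005 over all genes, with 6 members above 0 and 3 below. In the early window no member was past the threshold in either direction, where 2.04% of all genes were above 0.5 and 1.45% below −0.5, and the members ranged from −0.09 for ID2 to 0.245 for HTR2B. Taken alone, 24 h gave no call (7.24% of all genes above 0.5 and 5.26% below −0.5), while HTR2B and PTP4A3 were above 0.5 at 48 h (10.4% of all genes above and 8.96% below). The values of the 9 members just inside and just outside the threshold, 0.52 and 0.495, had intervals from 0.46 to 0.58 and from 0.39 to 0.6, so counting error alone does not place either gene on one side.

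**Figure D1:**
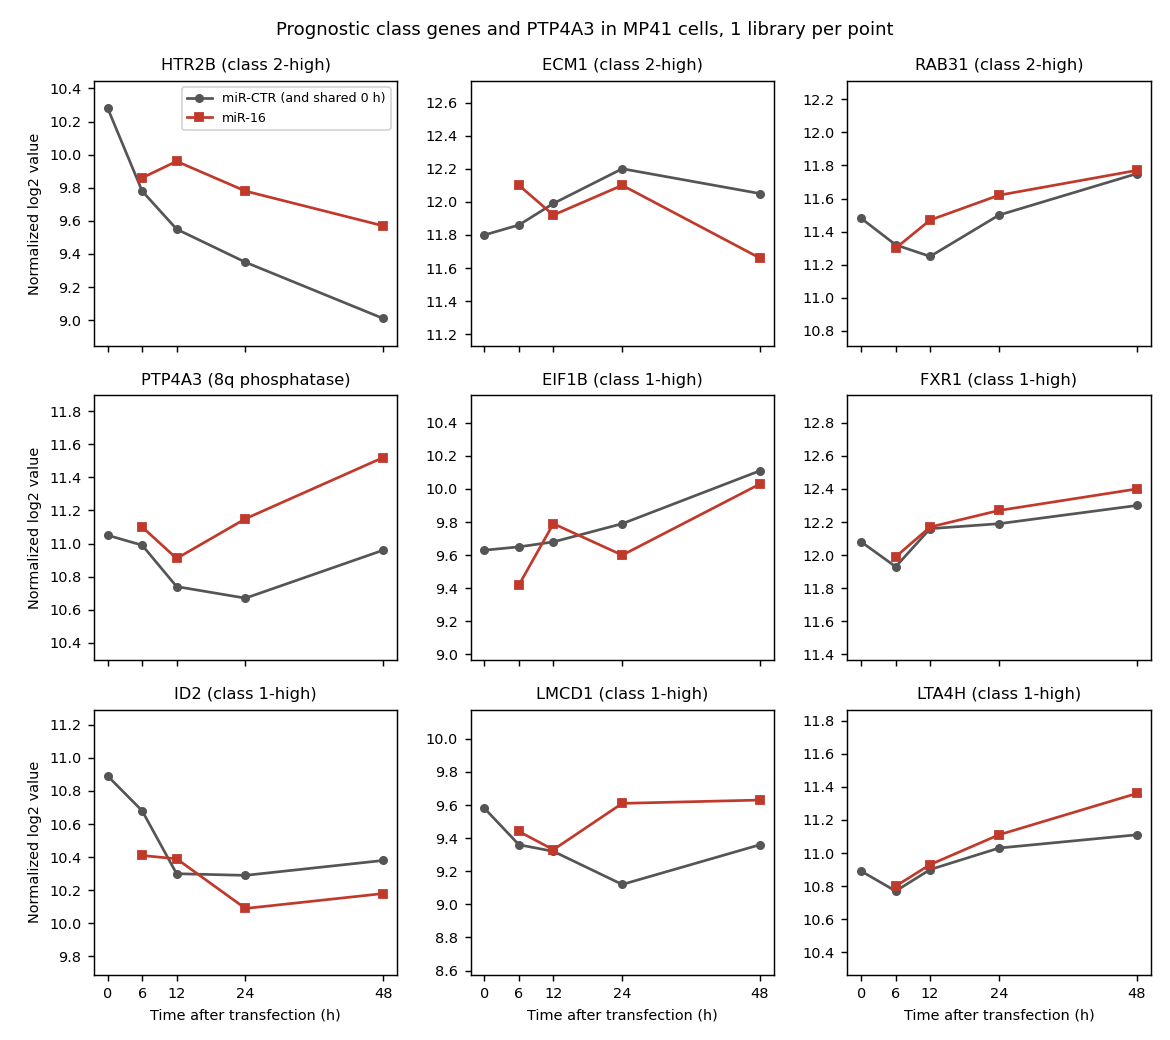
Normalized log2 value (vertical axis, the same height of 1.6 log2 units in each panel) of the 9 members against time after transfection in hours, with 1 library per point, circles for miR-CTR with the shared 0 h library and squares for miR-16. HTR2B falls from 10.28 with both mimics and stays higher with miR-16, and PTP4A3 ends at 11.52 with miR-16 and at 10.96 with miR-CTR.

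PTP4A3 (ENSG00000184489.11), which encodes the prenylated tyrosine phosphatase PRL-3, lies on the plus strand of chromosome 8 from 141391993 to 141432454. Its normalized log2 value was 11.05 at 0 h. In the miR-CTR libraries it was 10.99, 10.74, 10.67, and 10.96 after 6, 12, 24, and 48 h, and in the miR-16 libraries it was 11.10, 10.91, 11.15, and 11.52. The miR-16 library was the higher of the pair at every time, and the late values of the mimics did not overlap. These values gave logFCs of 0.11, 0.17, 0.48, and 0.56 in the order of time and a late logFC of 0.52 (counting SE 0.031), or 1.43-fold. Of all genes, 7.3% had a higher late logFC. Among the 25% of genes with the highest mean expression, where it belonged, the 5th and 95th percentiles of the late logFC were −0.49 and 0.36, so PTP4A3 lay above the upper one.

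The late changes of PTP4A3 since 0 h had opposite signs with the mimics. The late mean was 0.285 above the 0 h value with miR-16 (counting SE 0.038) and 0.235 below it with miR-CTR, a difference of −0.235 (counting SE 0.04). Both series share the 0 h library, and neither change passed the threshold by itself. The other phosphatases of this family, PTP4A1 and PTP4A2, had late logFCs of 0.03 (counting SE 0.018) and −0.15 (counting SE 0.024). Per length PTP4A1 was the more abundant at 0 h, at 1184 normalized reads per kb, and PTP4A2 was at 549. MYC, which like PTP4A3 lies on 8q, was above 0.5 at both 24 h (0.56) and 48 h (0.61). The 302 genes of 8q with values had a median late logFC of 0.025. Of these 302 genes, 24 were above 0.5 and 23 below −0.5, against 7.76% and 5.73% of all genes.

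HTR2B (ENSG00000135914.5), a serotonin receptor coupled to Gq, lies on the minus strand of chromosome 2 from 231108230 to 231125118. Its normalized log2 value was 10.28 at 0 h, the highest of the 9 libraries. With miR-CTR it was 9.78, 9.55, 9.35, and 9.01 at 6, 12, 24, and 48 h, each lower than the time before. With miR-16 it was 9.86, 9.96, 9.78, and 9.57, and the late values of the mimics did not overlap. The late change since 0 h was −1.10 with miR-CTR (counting SE 0.059), or 0.47 of the 0 h level, and −0.605 with miR-16 (counting SE 0.056), or 0.66 of it. HTR2B thus fell with both mimics, and less with miR-16, with logFCs of 0.08, 0.41, 0.43, and 0.56 over the same times.

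Only 1.3% of all genes had a lower late change since 0 h than HTR2B with miR-CTR, and 7.9% did with miR-16. In the pair of each time, miR-16 was the higher at 4 of 4 times, and the late logFC of 0.495 (counting SE 0.055) was exceeded by 7.9% of all genes. In the 25% band of mean expression that holds HTR2B, the 5th and 95th percentiles were −0.52 and 0.42. HTR2B, like PTP4A3 in its own band, lay above the upper one. The gene overlaps PSMD1, a proteasome subunit gene on the opposite strand, which shares 559 of the 2246 annotated exon bases of HTR2B (24.9%). Whether reads were counted by strand is not given in the sources used here. PSMD1 differed from HTR2B in sign between the mimics, with a late logFC of −0.285 (counting SE 0.02), and had 12.80 at 0 h. The part of its reads in the HTR2B count was not tested. Of 15 genes of serotonin receptors, synthesis, breakdown, and uptake chosen for comparison, 0 had values, so none of these could be followed beside HTR2B.

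ECM1 (ENSG00000143369.14; chromosome 1, plus strand, 150508062 to 150513789), a secreted glycoprotein of the extracellular matrix, was the member with the largest negative late logFC. It had 11.80 at 0 h, then 11.86, 11.99, 12.20, and 12.05 for miR-CTR and 12.10, 11.92, 12.10, and 11.66 for miR-16 at 6, 12, 24, and 48 h. The miR-16 library was the higher of the pair at 6 h and the lower at the other times, and the late values overlapped. The logFC went from 0.24 at 6 h through −0.07 and −0.10 to −0.39 at 48 h, with an early logFC of 0.085 (interval 0.04 to 0.13) and a late logFC of −0.245 (interval −0.29 to −0.20). Of 5 binding partners of ECM1 chosen for comparison, 4 had values, and all 4 had a negative late logFC, with a median of −0.215. Among all 14839 genes, 7292 had a negative late logFC. In the late window 1 of the 4 partners was below −0.5, against 5.73% of all genes. HSPG2, the basement membrane proteoglycan perlecan, was below −0.5 at both 24 h (−0.72) and 48 h (−0.59), as were 2.78% of all genes.

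RAB31 (ENSG00000168461.12; chromosome 18, plus strand, 9708165 to 9862551), a small GTPase of endosomal transport, differed little between the mimics. Its values lay between 11.25 (miR-CTR 12 h) and 11.77 (miR-16 48 h), and the late logFC was 0.07 (counting SE 0.025). Its relatives of the RAB5 subfamily were all measured, with late logFCs of −0.06 for RAB5A, 0.055 for RAB5B, 0.22 for RAB5C, −0.12 for RAB21, and −0.08 for RAB22A. Thus 0 of 5 were past the threshold, against 7.76% of all genes above 0.5 and 5.73% below −0.5. The 3 class 2-high members with values thus had late logFCs of 0.495, −0.245, and 0.07.

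Because CDH1 was not analysed here, the cadherin and catenin genes and the repressors of E-cadherin were followed as its context. Of 11 such genes 10 had values, with a median late logFC of −0.075. In the late window 1 was above 0.5 and 1 below −0.5, against 7.76% and 5.73% of all genes. CDH2, which encodes N-cadherin, was above 0.5 at both 24 h (0.76) and 48 h (0.71), and it fell since 0 h with both mimics, with a late change of −0.77 with miR-16 and −1.505 with miR-CTR. SNAI2, which encodes the repressor Slug, was below −0.5 at both 24 h (−0.51) and 48 h (−0.91), against a late change since 0 h of 0.5 with miR-16 and 1.21 with miR-CTR.

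**Figure D2:**
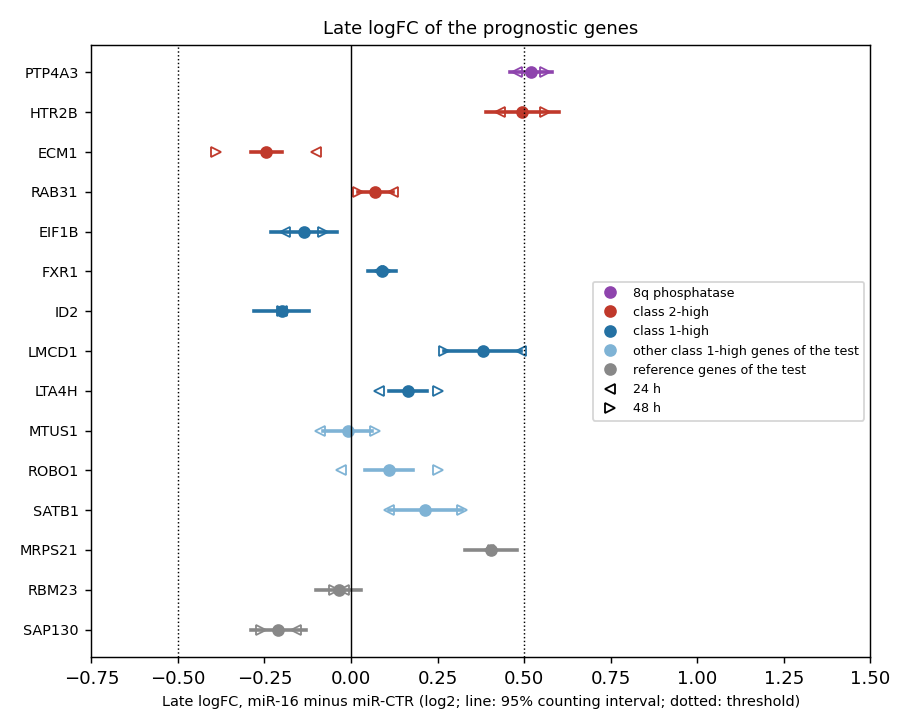
Late logFC (horizontal axis, miR-16 minus miR-CTR, log2) of the 9 members, the 3 other class 1-high genes, and the 3 reference genes of the assay (vertical axis), with dots for the mean of 24 and 48 h, lines for the 95% counting interval, triangles for each time, and dotted lines at the threshold of 0.5. PTP4A3 at 0.52 and HTR2B at 0.495 sit at the upper dotted line, and no gene reaches the lower one.

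Among the class 1-high members, ID2 had the lowest late values relative to 0 h with both mimics, and LMCD1 had the largest late logFC. ID2 (ENSG00000115738.9; chromosome 2, plus strand, 8678845 to 8684453) encodes a helix-loop-helix protein that binds E proteins and keeps them off DNA. Its value was 10.89 at 0 h and then 10.68, 10.30, 10.29, and 10.38 in the miR-CTR libraries and 10.41, 10.39, 10.09, and 10.18 in the miR-16 libraries. The 0 h library was the highest, and the late miR-16 values lay under both late miR-CTR values.

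ID2 fell with both mimics, with a late change since 0 h of −0.755 with miR-16 (counting SE 0.046) and −0.555 with miR-CTR (counting SE 0.044). Its late logFC was −0.20 (counting SE 0.042), equal at 24 and 48 h, and its early values differed in sign (−0.27 at 6 h and 0.09 at 12 h). Of the other ID genes, ID1 also fell since 0 h with both mimics, with a late change of −1.35 with miR-16 and −1.24 with miR-CTR, and its late logFC was −0.115 with an interval from −0.32 to 0.09. ID3 and ID4 had late logFCs of 0.205 and 0.23, opposite in sign to ID2. The E protein genes TCF3 and TCF12 had late logFCs of 0.03 and −0.025, and 5 of the 6 genes in this list had values.

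LMCD1 (ENSG00000071282.11; chromosome 3, plus strand, 8501707 to 8574673), a LIM domain protein that binds GATA6, had the third highest late logFC of the members. Its value was 9.58 at 0 h and then 9.36, 9.32, 9.12, and 9.36 for miR-CTR and 9.44, 9.33, 9.61, and 9.63 for miR-16 at 6, 12, 24, and 48 h. The late values did not overlap, and the miR-16 values at 24 and 48 h lay close to the 0 h value. The logFCs were 0.08 and 0.01 at the early times and 0.49 and 0.27 at the late ones, for a late logFC of 0.38 (counting SE 0.055; interval 0.27 to 0.49). The late change since 0 h was 0.04 with miR-16 and −0.34 with miR-CTR. Its 3′UTR holds a 7mer-m8 match to miR-16 and an 8mer match to the control. The counting intervals of the early logFCs included 0, from −0.08 to 0.24 at 6 h and from −0.14 to 0.16 at 12 h.

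Of the relatives of LMCD1 with a PET and LIM domain and GATA6, 5 of 5 had values, with a median late logFC of −0.38. In the late window 1 of the 5 was above 0.5 and 2 were below −0.5, against 7.76% and 5.73% of all genes. PRICKLE1, a planar polarity gene, had the largest value of any gene in the lists followed here, with a logFC of 0.66 at 24 h and 2.02 at 48 h. It had 7.72 at 0 h, and at 48 h it had 5.61 with miR-CTR and 7.63 with miR-16, so the miR-16 library was the one close to the start.

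The other class 1-high members differed by less. FXR1 (ENSG00000114416.17; chromosome 3, plus strand, 180868141 to 180982753), an RNA-binding protein of the FMRP family, had values between 11.93 and 12.40, with the highest at 48 h with miR-16. Its logFC was 0.06, 0.01, 0.08, and 0.10, and the late logFC of 0.09 had an interval from 0.05 to 0.13. The counting interval at 12 h included 0 (−0.05 to 0.07), and the one at 6 h reached it. The 2 miR-16 matches and the control matches lie in the same 3′UTR, and a link between a match and the logFC was not tested. FMR1 and FXR2 of the same family had late logFCs of 0.115 and −0.26, and the partner genes CYFIP1, CYFIP2, and AGO2 had −0.06, 0.87, and −0.205. CYFIP2, a subunit of the WAVE complex that regulates actin, had 0.46 at 24 h and 1.28 at 48 h. It was the only one of these 5 past the threshold in the late window, against 7.76% of all genes above 0.5 and 5.73% below −0.5.

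LTA4H (ENSG00000111144.9; chromosome 12, minus strand, 96000828 to 96043520), the hydrolase that makes leukotriene B4, was higher at each time than at the one before from 6 h onward with both mimics, from 10.80 to 11.36 with miR-16 and from 10.77 to 11.11 with miR-CTR. Its late logFC was 0.165 (counting SE 0.03), with 0.08 at 24 h and 0.25 at 48 h. Of 7 other leukotriene genes 2 had values, and LTB4R, a receptor of leukotriene B4, had a logFC of 0.56 at 24 h and 0.45 at 48 h from low levels (7.71 at 0 h). EIF1B (ENSG00000114784.3; chromosome 3, plus strand, 40309684 to 40312424), a close relative of the start codon selection factor EIF1, lay between 9.42 and 10.11, and its logFC was −0.23, 0.11, −0.19, and −0.08. Whether reads were shared between EIF1B and EIF1 was not tested. EIF1 was the more abundant, at 3220 normalized reads per kb at 0 h against 414 for EIF1B. The late logFC was −0.135 for EIF1B (counting SE 0.047), 0.13 for EIF1, −0.275 for EIF1AX, and −0.205 for EIF1AD.

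The 3 class 1-high genes of the assay outside the members had late logFCs of −0.01 for MTUS1, 0.11 for ROBO1, and 0.215 for SATB1. SATB1, a chromatin organizer, was the one past the threshold since 0 h, with a late change of 0.91 with miR-16 and 0.695 with miR-CTR from 8.80 at 0 h. Above 0.5 since 0 h were 14.1% of all genes with miR-16 and 11.0% with miR-CTR. ROBO1, a receptor of SLIT proteins, had late changes of 0.41 (counting SE 0.05) and 0.30 (counting SE 0.05). The median late logFC of the 8 class 1-high genes was 0.1. In the late window 0 of these 8 were past the threshold, against 7.76% of all genes above 0.5 and 5.73% below −0.5. All 3 of the members on chromosome 3, whose loss marks UM of poor prognosis, were class 1-high genes (EIF1B, FXR1, and LMCD1). The 733 genes of that chromosome with values had a median late logFC of 0.005, the same as all genes. Of these 733 genes, 58 were above 0.5 and 38 below −0.5, against 7.76% and 5.73% of all genes.

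**Figure D3:**
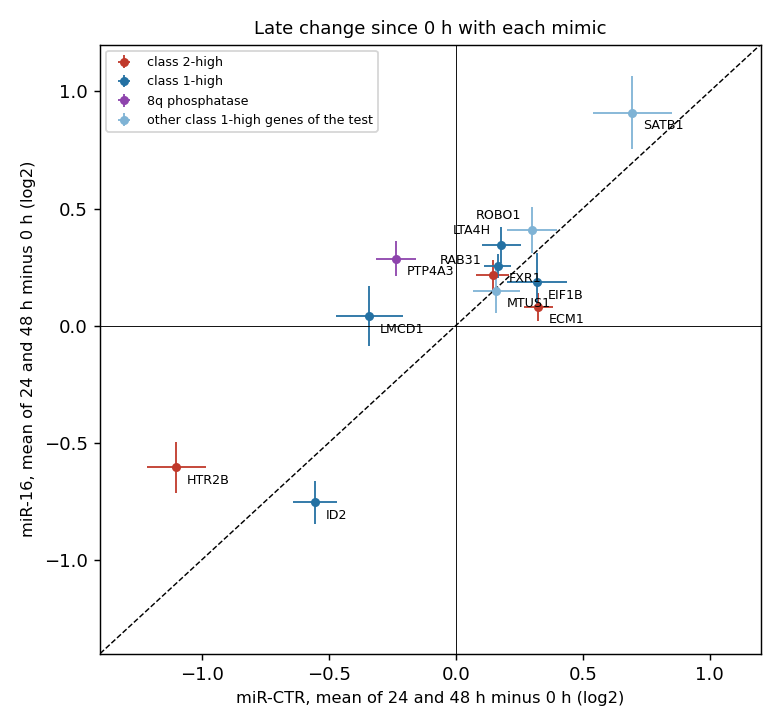
Mean of 24 and 48 h minus the 0 h value with miR-CTR (horizontal axis) and with miR-16 (vertical axis), in log2 units, for the 9 members and the 3 other class 1-high genes, with bars for the 95% counting interval and a dashed line where both mimics give the same change. HTR2B (−1.10 and −0.605) and ID2 (−0.555 and −0.755) are low on both axes, and PTP4A3 (−0.235 and 0.285) is the member with opposite signs whose bars do not cross 0 on either axis.

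Some members differed more from the 0 h library than between the mimics. The 0 h cells were taken as collected before transfection, and on that reading time and transfection cannot be told apart in these changes. Since 0 h, 2 of 9 members, HTR2B and ID2, were below −0.5 in the late window with miR-CTR, where 9.79% of all genes were, and the same 2 members were below −0.5 with miR-16, where 11.7% were. No member was above 0.5 since 0 h, against 11.0% of all genes with miR-CTR and 14.1% with miR-16. Both counts rest on the single 0 h library that the series share.

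As a description of each library and not as a class call, the mean of the 8 class 1-high genes was subtracted from the mean of the 3 class 2-high genes with values on the log2 scale. This is not the assay's own calculation, and CDH1 and the reference genes are not in it. This difference was 0.87 at 0 h. After 6, 12, 24, and 48 h it was 0.77, 0.62, 0.63, and 0.46 in the miR-CTR libraries, against 0.89, 0.78, 0.74, and 0.41 in the miR-16 libraries. It was the higher with miR-16 at 6, 12, and 24 h and the lower at 48 h, and the lowest values with either mimic were at 48 h. The class 2-high genes did not fall as a set. From 0 to 48 h HTR2B changed by −1.27 with miR-CTR, whereas ECM1 and RAB31 changed by 0.25 and 0.27. With miR-16 these changes were −0.71, −0.14, and 0.29. The logFCs at 24 h were 0.43 for HTR2B, −0.10 for ECM1, and 0.12 for RAB31. With only the 5 class 1-high members in place of the 8 genes, the difference at 48 h was 0.28 with both mimics, so the lower value with miR-16 at 48 h depends on the 3 other genes. The reference genes were not flat between the mimics, since MRPS21, a mitochondrial ribosomal protein gene, had a late logFC of 0.405 (counting SE 0.04), against −0.035 for RBM23 and −0.21 for SAP130. Their mean late logFC was 0.053, and centring each library on these 3 genes gave a late logFC of 0.467 for PTP4A3 and 0.442 for HTR2B, with no member past the threshold.

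**Figure D4:**
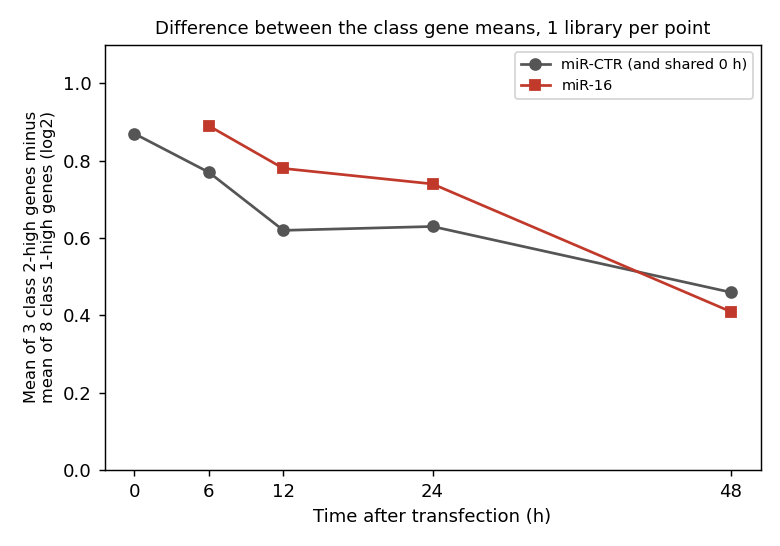
Mean normalized log2 value of the 3 class 2-high genes minus that of the 8 class 1-high genes (vertical axis, from 0) against time after transfection in hours, with circles for miR-CTR and the shared 0 h library and squares for miR-16, 1 library per point. The difference goes from 0.87 at 0 h to 0.46 with miR-CTR and 0.41 with miR-16 at 48 h. With miR-CTR at 48 h, HTR2B was below its 0 h value, and ECM1 and RAB31 were above theirs.

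The genes whose pattern over the 9 libraries was most like that of HTR2B and of PTP4A3 were looked up among the genes above the lowest 25% of mean expression with an SD over the libraries of at least 0.3 (2082 genes for HTR2B and 2083 for PTP4A3). For HTR2B these were DCBLD2 (Pearson's r of 0.994 and Spearman's rho of 0.979 over 9 libraries), GNAI1 (0.976 and 0.937), and RAP1B (0.969 and 1). Without the 0 h library their r over 8 libraries was 0.991, 0.963, and 0.952. All 3 fell since 0 h with both mimics and less with miR-16, as HTR2B did, with late changes of −0.68, −0.505, and −0.535 with miR-16 and −1.08, −0.905, and −1.06 with miR-CTR.

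For PTP4A3 the most similar genes were CXCL16 (r of 0.982 and rho of 0.917), MNX1-AS1 (0.956 and 0.933), and ARHGEF17 (0.952 and 0.917), with an r without the 0 h library of 0.982, 0.965, and 0.955. Their late logFCs were 0.735 for CXCL16, 0.705 for MNX1-AS1, and 0.695 for ARHGEF17, all above that of PTP4A3. These correlations describe libraries that share their culture, mimics, and times, and the genes were picked for the highest values.

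Across the genes chosen as relatives, partners, and pathway neighbours of the members, 45 of 69 had values. In the late window 5 of them were above 0.5 and 4 below −0.5, and in the early window 0 were past the threshold. Over all genes the shares were 7.76% and 5.73% in the late window and 2.04% and 1.45% in the early window, so these counts are near the background. The median late logFC of the 45 genes was −0.06. The genes past 0.5 in the same direction at both 24 and 48 h were CDH2, MYC, and PRICKLE1, which were higher with miR-16, and HSPG2 and SNAI2, which were lower, so 3 and 2 of 45 genes, against 4.03% and 2.78% of all genes.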

How the data were processed

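RNA sequencing was analysed for 9 libraries of MP41 cells, 1 per condition. The authors deposited normalized log2 values with 2 decimals for 14839 genes. Per the submitters' processing notes the tools were FastQC, STAR 2.4.0a, and featureCounts of Subread 1.5.0-p3, with hg38/GRCh38. The annotation and the use of strand are not given in the sources used here. After conversion to the linear scale and subtraction of 1, every library's values up to 5 were whole multiples (100%) of its own step, which was 0.8531 to 1.1494, so the unit was read as log2(reads / size factor + 1), and dividing by the step gave the reads, between 20270000 and 27370000 per library. For high values these reads are approximate because of the 2 decimals. No further normalization was applied.

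logFCs, windows, and the threshold of 0.5 are as in the report, rounded to 3 decimals before calling. Counting SEs were derived from the reads. No p-value was computed. Gene calling, counting SEs, and the recovery of the steps were tested on simulated data. Positions and 3′UTRs came from GENCODE 29 (GRCh38) by symbol, with 87.51% of symbols matched to 1 gene. miR-16 and the control sequence came from the study's list of oligonucleotides. Analyses used Python 3.11.15, numpy 2.4.6, pandas 2.3.3, and matplotlib 3.10.9.

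The members and lists were chosen with earlier results of these data known. The genes named are all members, the other genes of the assay, all genes with values of the family lists (PTP4A, RAB5, ID with E proteins, FXR with partners, and EIF1), and of the other lists those past 0.5 in the same direction at both 24 and 48 h. PSMD1, LTB4R, COL1A1, and the genes with the most similar pattern (the 3 highest correlations with HTR2B and PTP4A3 above the lowest 25% of expression and with an SD of at least 0.3) are the others, and PSMD1, LTB4R, and COL1A1 were chosen after their values were seen. The alternatives were a 1.5-fold threshold, quantile normalization, a pseudocount of 10, centring on the median gene, the 0 h library or the mean of the 5 miR-CTR libraries as the reference, a filter on the lowest 25% of expression, single times, both times, and other definitions of a seed match. Centring on the reference genes and the alternatives for the change since 0 h were added after seeing the data.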

Additional observations from a re-analysis of the deposited data

Results flagged for a closer look

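PTP4A3 had late changes of opposite sign since 0 h with the mimics, 0.285 with miR-16 and −0.235 with miR-CTR, a difference of 0.52. Both counting intervals lay off 0, and the late libraries of each mimic lay on different sides of the 0 h library, which both series share. The difference was not tested.

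ECM1 had a positive logFC in the early window (0.085) and a negative one in the late window (−0.245), a change of −0.33 between the windows. Within the early window the sign was positive at 6 h (0.24) and negative at 12 h (−0.07). The difference between the windows was not tested.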

How the results depend on the processing

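The late count of 1 member past the threshold, PTP4A3, rested on values close to 0.5. It became 2 (HTR2B and PTP4A3) with quantile normalization, with centring on the median gene, and at 48 h alone, and 0 with a 1.5-fold threshold, with centring on the 3 reference genes, with the mean of the 5 miR-CTR libraries as the reference, at 24 h alone, and when both 24 and 48 h had to pass. With the 0 h library as the reference it was 2, HTR2B and ID2. It stayed at 1, PTP4A3, with a pseudocount of 10 and with the filter on low expression, which left 3.96% of 11129 genes above 0.5 and 4.81% below −0.5. The early count was 0 under each of the 10 alternatives. Since 0 h, the count with miR-16 was 1 (ID2) at 24 h alone, and the count with miR-CTR was 1 (HTR2B) with a 1.5-fold threshold and with centring on the reference genes. The miR-16 seed matches were in 1 member (LMCD1) without 7mer-A1 sites, against 29.2% of the protein-coding genes, and in 3 (with PTP4A3 added) when 6 letters were enough, against 52.4%.

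Over 8 alternatives, the late logFC ranged from 0.285 to 0.574 for PTP4A3 and from −0.605 to 0.56 for HTR2B. The sign changed in 4 of 72 cases, for HTR2B, ECM1, and EIF1B against the 0 h library and for EIF1B against the mean of the miR-CTR libraries. With the 0 h library as the reference, changes with time in culture and with transfection enter the value. No replicate could be left out, since each condition has 1 library. A fit over the 4 pairs of libraries of the same time, which would use the times as replicates, was not run.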
